A study of Arabidopsis thaliana with 72 samples.

Results

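ALPHA-VPE (AT2G25940), GAMMA-VPE (AT4G32940) and APA1 (AT1G11910) are 3 Arabidopsis thaliana genes for proteases of the vacuole, and their transcript levels were followed across plant lines, organs and nitrate supplies. They were chosen by name, as the probe sets that the probe table pairs with one of these genes and with no other. Earlier results of these data were known when the choice was made. Each has 1 probe set on the array, 266849_at for ALPHA-VPE, 253358_at for GAMMA-VPE and 264344_at for APA1, and together they are 3 of the 13355 genes that have a probe set of their own. Shoots and roots of 6 lines were harvested after 21 days on vertical agar plates with 1% sucrose, under 16 h of light and 8 h of dark. The low supply was 0.4 mM nitrate, given as 0.2 mM Ca(NO3)2 with 5 mM KCl, and the sufficient supply was 9 mM nitrate, given as 5 mM KNO3 with 2 mM Ca(NO3)2. El-0 and Fei-0 are natural accessions. KB006 is a recombinant inbred line, an inbred descendant of a cross, from Kondara and Br-0, and NG064 and NG087 come from Nok-3 and Ga-0 and SG063 from Sorbo and Gy-0. There were 24 groups and 72 Affymetrix arrays, with 3 biological replicates for every combination of line, organ and supply. A replicate was a pool of 30 plants from 3 plates per the labels, so values are means over whole organs of many plants.

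Vacuolar processing enzymes are cysteine proteases that cut after asparagine residues, a type also called legumains. They bring other vacuolar proteins into their mature form, and they have been tied to forms of plant cell death in which the vacuole collapses. ALPHA-VPE and GAMMA-VPE are the vegetative members of the family, known from leaves, roots and senescing tissue, while BETA-VPE is the seed member that processes storage proteins and DELTA-VPE is known from the seed coat. APA1 is an aspartic protease of the vacuole, of the type that carries the plant-specific insert.

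The deposited values are on a log2 scale after background correction, so a difference of 1 is a 2-fold change in signal. Their lowest value is 2.11, at which a probe set carries no usable signal. Differences are low minus sufficient nitrate, or shoots minus roots, and a difference was called where limma's p-value, after Benjamini-Hochberg adjustment across the 22746 probe sets, was below 0.05. Array medians lay between 5.72 and 6.04, and 25.1% to 27.8% of the probe sets of an array were within 0.1 of the lowest value. Values of different probe sets share no scale, so levels are compared only within a gene.

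All 4 arrays labelled Fei-0 replicate 3 went against their labels. Each array was correlated, over all probe sets, with the mean of the other arrays of each organ and supply, all lines together. The one labelled shoot at low nitrate correlated at 0.984 with shoots at sufficient nitrate and at 0.962 with its own label. For the one labelled shoot at sufficient nitrate the best match was root at low nitrate, with 0.988 against 0.789 for its own label. The one labelled root at low nitrate matched root at sufficient nitrate, with 0.987 against 0.977, and the one labelled root at sufficient nitrate matched shoot at low nitrate, with 0.987 against 0.859. The other 68 arrays matched their labels best. The 4 arrays are kept under their labels in the first value of each result, and the main comparisons are also given without them, with 17 arrays per organ and supply in place of 18.

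In shoots all 3 genes rose at low nitrate. The mean over the 6 lines was higher by 1.55 ± 0.42 (limma's SE) on the log2 scale for ALPHA-VPE, with an adjusted p of 0.0045. No fold is given for this gene in shoots, since its values at sufficient nitrate lie near the background and the difference may be an underestimate. Leaving out replicate 1 of every group ended its call, at 1.01 with an adjusted p of 0.195. For GAMMA-VPE it was higher by 1.49 ± 0.12, a 2.82-fold rise with an adjusted p of 1.69e-09. APA1 rose by 0.69 ± 0.09, or 1.62-fold, with an adjusted p of 1.81e-06. A rise was called for 23.7% of all probe sets in this comparison. Without the mismatched Fei-0 arrays the rises were 1.99 ± 0.30 (adjusted p = 5.03e-06), 1.61 ± 0.08 (3.06-fold, adjusted p = 2.45e-13) and 0.80 ± 0.06 (1.74-fold, adjusted p = 6.04e-11) in the same order, beside 28% of all probe sets.

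In roots the genes parted. ALPHA-VPE rose by 1.18 ± 0.17 (2.26-fold, adjusted p = 4.79e-06) and GAMMA-VPE by 0.66 ± 0.14 (1.58-fold, adjusted p = 0.00042), while 21.2% of all probe sets rose. Leaving out replicate 2 of every group ended the GAMMA-VPE call, at 0.41 with an adjusted p of 0.0898. For APA1 the difference was -0.06 ± 0.04 with an adjusted p of 0.256, and its 95% interval ran from -0.139 to 0.0187, so a rise of the size seen in shoots lies outside it. Leaving out replicate 2 moved it to -0.123, which passed (adjusted p = 0.0152). Without the mismatched Fei-0 arrays the differences were 1.17 ± 0.11 (adjusted p = 5.2e-09), 0.82 ± 0.09 (adjusted p = 3.23e-08) and -0.05 ± 0.04 (adjusted p = 0.366), beside 23.6% of all probe sets that rose.

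**Figure D1:**
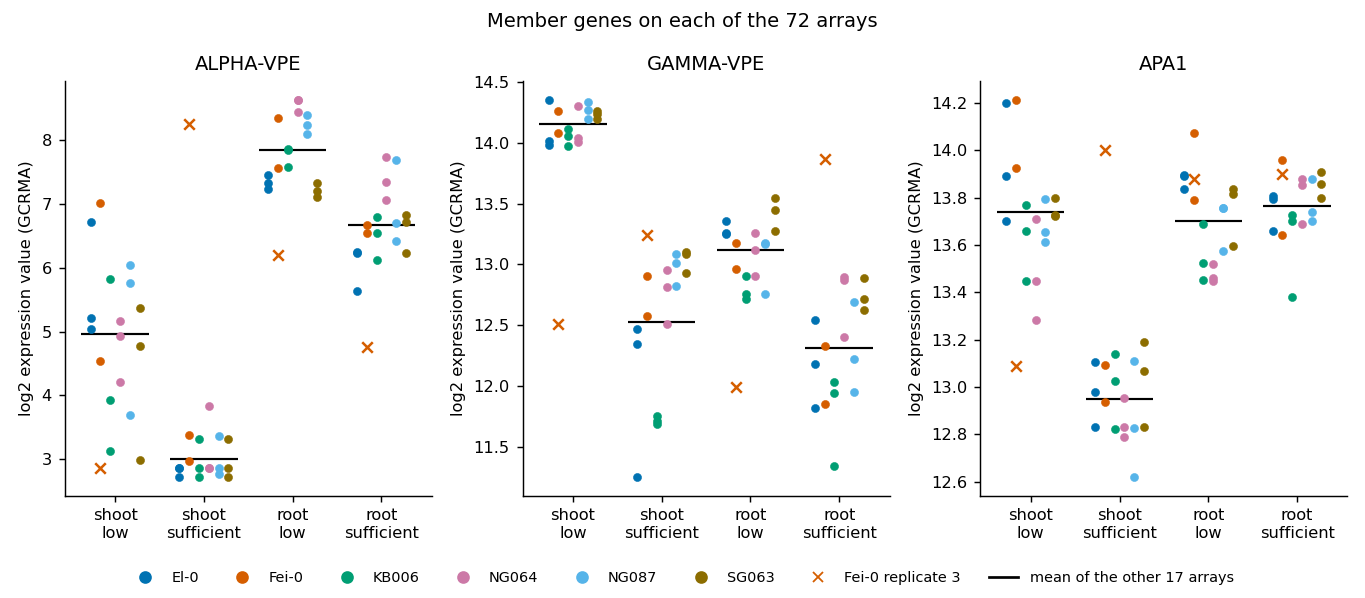
Log2 value of each gene on each array, by organ and nitrate supply, with points coloured by line, crosses for the mismatched Fei-0 replicate 3 arrays and bars for the mean of the other 17 arrays. ALPHA-VPE and GAMMA-VPE sit higher at low nitrate in both organs, and APA1 does so in shoots, while its root values at the 2 supplies overlap.

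Whole organs were sampled, so fewer cells of a type and less RNA per cell cannot be told apart in any of these values. Other tissue markers moved with nitrate. In the 17 shoot arrays per supply without the mismatched ones, 9 measured genes of green tissue summed to 104.72 to 116.33 at low nitrate and 117.1 to 122.13 at sufficient nitrate. Of the 9 genes 8 fell (0 of 9 with all arrays). Of all 22746 probe sets 4979 fell and 6379 rose in shoots (3938 and 5381 with all arrays). In roots the same 9 genes of green tissue summed to 33.7 to 53.4 at low nitrate and 66.7 to 81.1 at sufficient nitrate. There 9 of 9 fell, beside 4350 of all 22746 probe sets. The 7 measured root markers summed to 47.8 to 55.6 and 43.1 to 51.6 in shoots at low and sufficient nitrate, and to 59.2 to 66.1 and 64.3 to 69.9 in roots. Of the 7 root markers 1, the peroxidase gene PRX52, rose in shoots, by 4.86, and 4 fell. The other 6 all had lower shoot means at low nitrate, so the higher shoot sum comes from PRX52 alone, and PRX52 was at the floor in 17 of 17 root arrays at sufficient nitrate. Array medians averaged 5.98 ± 0.04 and 5.80 ± 0.05 (SD, n = 17 each) in shoots at low and sufficient nitrate. The part of the marker shifts in the results was not tested. For the array medians, a fit with each array centred on its median was run. It gave mean shoot rises of 1.37 for ALPHA-VPE, 1.32 for GAMMA-VPE and 0.52 for APA1, with all arrays.

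ALPHA-VPE was close to its lowest values in shoots at sufficient nitrate. Over the 17 arrays left without the mismatched one it averaged 3.01 ± 0.32 (SD) there, 16 of 17 values were below 3.5, and 7 of 17 shared the repeated value 2.86, as values near the background do. The shoot rise of the gene is thus measured against values near the background. At low nitrate it averaged 4.96 ± 1.14 (SD, n = 17).

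By line, El-0 shoots had ALPHA-VPE values of 6.71, 5.04 and 5.22 at low nitrate, against 2.86, 2.86 and 2.73 at sufficient nitrate. In NG064 shoots the values were 5.17, 4.94 and 4.21 at low nitrate and 3.84, 2.86 and 2.86 at sufficient nitrate. NG087 shoots had 6.04, 3.69 and 5.75 at low nitrate, and 2.76, 2.86 and 3.37 at sufficient nitrate. In these 3 lines each low value was above each sufficient one, but the low values themselves spread over more than 1 log2 unit in El-0 and NG087. KB006 shoots had 3.92, 3.13 and 5.83 at low nitrate, against 2.73, 3.32 and 2.86 at sufficient nitrate. SG063 shoots gave 5.38, 2.99 and 4.78 at low nitrate, against 3.32, 2.73 and 2.86 at sufficient nitrate. In both of these lines 1 low replicate lay within the sufficient range. Fei-0 shoots had 7.02, 4.54 and, on the mismatched array, 2.86 at low nitrate, against 2.97, 3.37 and, on the mismatched array, 8.25 at sufficient nitrate. The mismatched pair of values runs opposite to the other replicates and turns the line's difference to -0.06 from the 2.61 that replicates 1 and 2 give.

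The difference in ALPHA-VPE was therefore widest in El-0, at 2.84 ± 1.04 (SE), and between 1.33 and 2.17 in the 4 recombinant inbred lines. With all arrays no line passed the test in shoots (0 of 6), while over the 6 lines 6.1% of all tests of a probe set in a line were called rises. Left without the mismatched arrays, El-0 (adjusted p = 0.00406), Fei-0 (0.0419) and NG087 (0.029) passed, beside 12.6% of all such tests. The other 3 lines had adjusted p-values of 0.113 to 0.193 there.

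Root values of ALPHA-VPE were tighter. NG064 roots had 8.62, 8.63 and 8.44 at low nitrate, against 7.73, 7.06 and 7.34 at sufficient nitrate. NG087 roots had 8.24, 8.09 and 8.39 at low nitrate, against 7.69, 6.42 and 6.71 at sufficient nitrate. Both lines of the Nok-3 by Ga-0 cross were thus separated by supply, and NG064 had the highest ALPHA-VPE values at low nitrate. In KB006 roots the values were 7.58, 7.84 and 7.86 at low nitrate and 6.54, 6.11 and 6.79 at sufficient nitrate. El-0 roots showed 7.33, 7.46 and 7.23 at low nitrate, against 5.64, 6.23 and 6.24 at sufficient nitrate. SG063 roots had 7.33, 7.11 and 7.20 at low nitrate, against 6.83, 6.23 and 6.71 at sufficient nitrate. The groups did not overlap in these lines either, though the gap was narrowest in SG063. Fei-0 roots had 7.56, 8.35 and, on the mismatched array, 6.20 at low nitrate, against 6.55, 6.67 and, on the mismatched array, 4.76 at sufficient nitrate. Both mismatched values are the lowest of their group, and the Fei-0 difference, 1.38 with them and 1.35 without, hardly depends on them.

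The root differences of ALPHA-VPE lay between 1.19 and 1.38 in 5 lines, each ± 0.42 (SE), and at 0.62 in SG063. With all arrays 2 of 6 lines, Fei-0 (adjusted p = 0.0484) and KB006 (0.0377), passed, beside 6.4% of all tests of a probe set in a line. Leaving out the mismatched arrays, which lowers the SE of the other lines to 0.26, brought 5 of 6 lines past the test, beside 10.1% of all such tests, and SG063 stayed at an adjusted p of 0.0954. Over all probe sets and lines, the 3 low values lay wholly above the 3 sufficient ones in 16.7% of cases in shoots and 15.1% in roots. ALPHA-VPE was separated this way in 3 of 6 lines in shoots and in 5 of 6 in roots.

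GAMMA-VPE showed little spread in shoots at low nitrate. Without the mismatched array its 17 values there lay between 13.97 and 14.35, with a mean of 14.16 ± 0.13 (SD). At sufficient nitrate they ran from 11.26 to 13.10, with a mean of 12.53 ± 0.58 (SD, n = 17). KB006 shoots had 14.11, 14.06 and 13.97 at low nitrate, against 11.71, 11.75 and 11.69 at sufficient nitrate. El-0 shoots had 14.35, 13.98 and 14.01 at low nitrate, against 11.26, 12.47 and 12.35 at sufficient nitrate. These lines had the lowest values at sufficient nitrate and so the widest gaps. In NG064 shoots GAMMA-VPE had 14.00, 14.04 and 14.30 at low nitrate, and 12.81, 12.95 and 12.51 at sufficient nitrate. NG087 shoots had 14.20, 14.33 and 14.27 at low nitrate, against 13.01, 13.09 and 12.82 at sufficient nitrate. SG063 shoots had 14.23, 14.26 and 14.20 at low nitrate, against 13.10, 13.09 and 12.93 at sufficient nitrate. Here too the groups were apart, by about 1 log2 unit. Fei-0 shoots had 14.26, 14.08 and, mismatched, 12.51 at low nitrate, against 12.58, 12.90 and, mismatched, 13.24 at sufficient nitrate. Replicates 1 and 2 of Fei-0 do not overlap, and the mismatched array labelled low lies below all Fei-0 values labelled sufficient.

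The shoot rise of GAMMA-VPE was 2.33 in KB006 (adjusted p = 2.23e-05), 2.09 in El-0 (0.000111), 1.35 in NG064 (0.00447), 1.29 in NG087 (0.00754) and 1.19 in SG063 (0.00962), each ± 0.30 (SE). In Fei-0 the difference was 0.71 (adjusted p = 0.374), and 1.43 (adjusted p = 0.000261) once the mismatched arrays were left out. The gene was thus called in 5 of 6 lines with all arrays and in 6 of 6 without those 4. Of all tests of a probe set in a line in shoots, 6.1% and 12.6% were called rises.

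In roots the values of GAMMA-VPE came closer together. El-0 roots had 13.36, 13.25 and 13.26 at low nitrate, against 11.82, 12.18 and 12.54 at sufficient nitrate. KB006 roots had 12.76, 12.91 and 12.72 at low nitrate, against 12.03, 11.35 and 11.95 at sufficient nitrate. Both lines were clearly separated by supply. In SG063 roots GAMMA-VPE had 13.45, 13.54 and 13.28 at low nitrate, and 12.89, 12.63 and 12.71 at sufficient nitrate. NG087 roots gave 12.76, 13.17 and 13.18 at low nitrate, against 12.69, 11.95 and 12.22 at sufficient nitrate. NG064 roots gave 12.91, 13.26 and 13.12 at low nitrate, against 12.90, 12.41 and 12.87 at sufficient nitrate. In NG087 and NG064 the groups only just stayed apart. Fei-0 roots had 12.97, 13.18 and, mismatched, 11.99 at low nitrate, against 12.33, 11.85 and, mismatched, 13.86 at sufficient nitrate. The mismatched value 13.86 is the highest root value of the gene, and the array matched shoots at low nitrate, where the gene is highest.

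With all arrays only KB006 passed for GAMMA-VPE in roots, with a rise of 1.02 ± 0.34 (SE, adjusted p = 0.039), and El-0 came close with 1.11 (adjusted p = 0.0541). Once the mismatched arrays were dropped 5 of 6 lines passed, Fei-0 among them with 0.98 (adjusted p = 0.0118), and NG064 did not, with 0.37 and an adjusted p of 0.216. Of all tests of a probe set in a line in roots, 6.4% were called rises with all arrays and 10.1% without the mismatched ones.

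**Figure D2:**
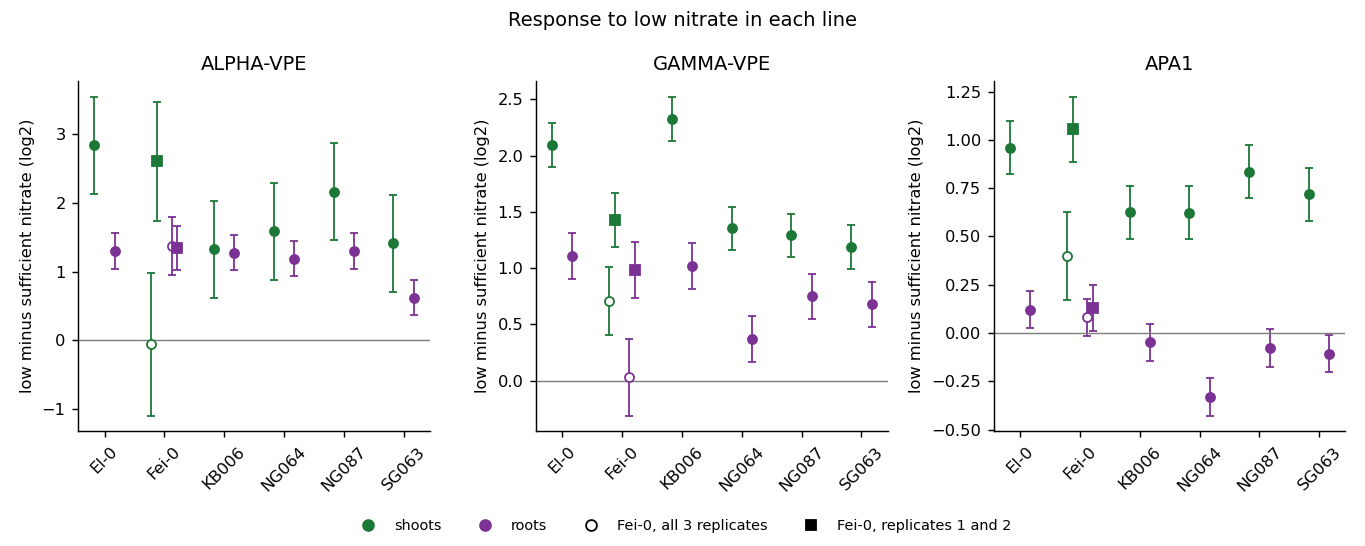
Low minus sufficient nitrate difference of each gene in each line, in log2 units with limma's SE, shoots in green and roots in purple; for Fei-0 the open circle uses all 3 replicates and the square replicates 1 and 2, and the SE of the other lines is that of the fit without the mismatched arrays. APA1 lies between -0.33 and 0.13 in roots and at 0.40 to 1.05 in shoots, while both processing enzymes are above 0 in both organs apart from the Fei-0 circle of ALPHA-VPE in shoots (-0.06).

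In shoots the low values of APA1 lay wholly above the sufficient ones in 5 of 6 lines, beside 16.7% of cases over all probe sets and lines. El-0 shoots had 14.20, 13.89 and 13.70 at low nitrate, against 12.83, 13.10 and 12.98 at sufficient nitrate. NG087 shoots had 13.61, 13.65 and 13.79 at low nitrate, against 12.62, 13.11 and 12.83 at sufficient nitrate. SG063 shoots had 13.80, 13.73 and 13.72 at low nitrate, against 12.83, 13.07 and 13.19 at sufficient nitrate. In these lines the low values lay well above the sufficient ones. KB006 shoots had APA1 values of 13.77, 13.45 and 13.66 at low nitrate, against 13.14, 12.82 and 13.03 at sufficient nitrate. NG064 shoots had APA1 values of 13.45, 13.28 and 13.71 at low nitrate, against 12.95, 12.79 and 12.83 at sufficient nitrate. The gap was narrower in KB006 and NG064. Fei-0 shoots had 14.21, 13.92 and, mismatched, 13.09 at low nitrate, against 13.09, 12.94 and, mismatched, 14.00 at sufficient nitrate. The mismatched value labelled low lay within the range of the other sufficient values, and the one labelled sufficient within that of the other low values. The array labelled sufficient matched root at low nitrate best. How the arrays came to differ from their labels was not tested.

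With all arrays the shoot rise of APA1 was called in El-0 (0.96, adjusted p = 0.0074), NG087 (0.83, 0.0208) and SG063 (0.72, 0.0374), each ± 0.23 (SE). KB006, at 0.63, and NG064, at 0.62, had an adjusted p of 0.0795 each. Without the mismatched arrays 6 of 6 lines passed, with Fei-0 at 1.05 (adjusted p = 0.000178), and adjusted p-values of 0.00174 in KB006 and 0.00182 in NG064. Rises were called in 6.1% of all tests of a probe set in a line in shoots, and in 12.6% without the mismatched arrays.

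Root values of APA1 held within a narrow band. El-0 roots had 13.89, 13.89 and 13.84 at low nitrate, against 13.66, 13.79 and 13.81 at sufficient nitrate. NG064 roots had 13.46, 13.52 and 13.45 at low nitrate, against 13.88, 13.69 and 13.85 at sufficient nitrate. The low values were above the sufficient ones in El-0, by a small margin, and below them in NG064. KB006 roots had 13.69, 13.45 and 13.52 at low nitrate, against 13.73, 13.38 and 13.70 at sufficient nitrate. NG087 roots gave 13.58, 13.75 and 13.76 at low nitrate, and 13.88, 13.70 and 13.74 at sufficient nitrate. SG063 roots gave 13.84, 13.82 and 13.59 at low nitrate, and 13.80, 13.91 and 13.86 at sufficient nitrate. In these lines the supplies overlapped. Fei-0 roots had 13.79, 14.07 and, mismatched, 13.88 at low nitrate, against 13.96, 13.64 and, mismatched, 13.90 at sufficient nitrate, which overlapped as well.

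The only line called for APA1 in roots was NG064, where it fell by 0.33 ± 0.09 (SE) on the log2 scale, with an adjusted p of 0.0164 with all arrays and 0.0136 without the mismatched ones. In that comparison 6.8% of all probe sets fell, and 11.6% without the mismatched arrays. The call was lost without replicate 1 or 3 of NG064 roots at either supply. The low values lay wholly below the sufficient ones for 16.4% of all probe sets in NG064 roots. Neither the deviation of NG064 from the other lines (-0.32, adjusted p = 0.237, and -0.33, adjusted p = 0.117, without the mismatched arrays) nor the line by nitrate test for APA1 in roots passed.

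Whether the response to nitrate differed between the lines was tested for each gene. No member passed in either organ. For GAMMA-VPE in shoots, which came nearest, the adjusted p of the line by nitrate F test was 0.246 with all arrays and 0.0838 without the mismatched ones. Once arrays were also centred on their medians, an alternative chosen after the data were seen, it was 0.0465, beside 1.14% of all probe sets. For the remaining 5 tests the adjusted p lay between 0.266 and 1 with all arrays and between 0.203 and 0.978 without the 4. The test passed for 0.8% of all probe sets in shoots and 2.2% in roots with all arrays, and for 1.11% and 6.24% without the 4. No single line's response was called apart from the mean of the other lines for any member, and 0.619% of such tests over all probe sets were in shoots and 0.816% in roots (0.269% and 0.918% without the 4). The nearest were Fei-0 for GAMMA-VPE in shoots with all arrays, at -0.94 (adjusted p = 0.103), and KB006 without the mismatched arrays, at 0.86 (adjusted p = 0.101).

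Lines differed in level, taken as the mean of both supplies. Such a difference can come from a line's own sequence under the probes as well as from its transcript level, and the 2 cannot be told apart here. For ALPHA-VPE in roots the F test of line level gave an adjusted p of 0.0033, beside 44.4% of all probe sets that passed it, and 3.2e-05 without the mismatched arrays, beside 56%. NG064 was highest at 7.97, followed by NG087 at 7.59, KB006 at 7.12, SG063 at 6.90, El-0 at 6.69 and Fei-0 at 6.68 (7.28 without the mismatched arrays). Leaving out replicate 1 of every group ended the call of the F test (adjusted p = 0.191). Of 15 pairs of lines 5 were called (6 without the mismatched arrays), each with NG064 or NG087 above another line, beside 16.7% of all tests of a probe set in a pair of root levels (22.9% without the mismatched arrays). El-0 minus NG064 was -1.28 (adjusted p = 0.00261), Fei-0 minus NG064 -1.29 (0.00259) and NG064 minus SG063 1.07 (0.0128), and without the mismatched arrays Fei-0 minus NG064 was -0.69 (0.0161). El-0 minus NG087 was -0.90 (0.0445), and Fei-0 minus NG087, -0.91 (0.0383), lost its call without the mismatched arrays. NG064 and NG087, which share their parents, were not called apart, and nor were KB006, SG063, El-0 and Fei-0 from one another.

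For GAMMA-VPE in shoots the adjusted p for line level was 0.0333, beside 25.2% of all probe sets, and 0.000396 without the mismatched arrays, beside 35.9%. That call was lost without replicate 1 (adjusted p = 0.203) or replicate 2 (0.442) of every group, and without each of 13 single arrays. SG063 (13.63) and NG087 (13.62) were highest and KB006 (12.88) lowest, with NG064 at 13.44, Fei-0 at 13.26 (13.45 without the mismatched arrays) and El-0 at 13.07. Of 15 pairs 2 were called, KB006 minus NG087 at -0.74 (adjusted p = 0.0304) and KB006 minus SG063 at -0.75 (0.0312), beside 7.99% of all such tests in shoots. Leaving the mismatched arrays out gave 6 called pairs (12.1% of all tests), which set KB006 below all but El-0, and El-0 below NG087 and SG063. In roots KB006 was again the lowest, at 12.29, and SG063 the highest, at 13.08. That pair was called in roots too (-0.80, adjusted p = 0.0211), although the F test over all lines had an adjusted p of 0.114 with all arrays and 0.00111 without the 4.

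APA1 differed between lines in roots, with an adjusted p of 0.00444, beside 44.4% of all probe sets, and 0.00944 without the mismatched arrays, beside 56%. The call was lost without replicate 2 (adjusted p = 0.0661) or replicate 3 (0.112) of every group. Fei-0 (13.87), El-0 (13.81) and SG063 (13.80) were highest, NG087 (13.73) and NG064 (13.64) followed, and KB006 (13.58) was lowest. The called pairs were small and numbered 4 of 15 with all arrays and without the mismatched ones, beside 16.7% and 22.9% of all such tests. They were El-0 minus KB006 at 0.24 (adjusted p = 0.0116), Fei-0 minus KB006 at 0.30 (0.00194), Fei-0 minus NG064 at 0.23 (0.0134) and KB006 minus SG063 at -0.22 (0.0185). No pair was called for APA1 in shoots with all arrays, where the F test gave 0.471. Once those arrays were dropped 2 shoot pairs were, beside 12.1% of all such tests, with El-0 above NG064 by 0.28 and Fei-0 above NG064 by 0.37, and the F test gave 0.0598. ALPHA-VPE showed no called pair in shoots (adjusted p of the F test 0.761, and 0.745 without the mismatched arrays).

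The rise at low nitrate was greater in shoots than in roots for GAMMA-VPE and APA1. Shoot minus root response was 0.84 ± 0.19 (SE, adjusted p = 0.000335) for GAMMA-VPE and 0.75 ± 0.10 (adjusted p = 5.83e-08) for APA1, and a greater response in shoots was called for 18.4% of all probe sets. Without the mismatched arrays these were 0.80 ± 0.12 and 0.85 ± 0.07, beside 24.5%. With all arrays, each centred on its median, they were 0.63 and 0.55. The GAMMA-VPE difference was 0.66 without replicate 1 of every group and did not pass (adjusted p = 0.0693). For ALPHA-VPE the difference was 0.37 ± 0.46 with an adjusted p of 0.584. It was 0.82 ± 0.32 with an adjusted p of 0.0346 without the mismatched arrays, and 0.60 with an adjusted p of 0.0818 when arrays were also centred, so its call turns on both choices.

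The organ with the higher level was not the same for the 3 genes. ALPHA-VPE was higher in roots at both supplies. Its shoot minus root difference was -2.90 ± 0.33 (SE, adjusted p = 3.3e-11) at low nitrate and -3.27 ± 0.33 (adjusted p = 8.53e-13) at sufficient nitrate, and -2.84 ± 0.23 and -3.65 ± 0.23 without the mismatched arrays. The shoot values at sufficient nitrate are near the background, so the second difference may be an underestimate. GAMMA-VPE was higher in shoots by 1.01 ± 0.13 (adjusted p = 2.06e-09) at low nitrate. At sufficient nitrate its difference of 0.17 ± 0.13 had an adjusted p of 0.257, and without the mismatched arrays it was 0.24 ± 0.08 with an adjusted p of 0.0105. APA1 was level between the organs at low nitrate, at -0.01 ± 0.07 with an adjusted p of 1 and a 95% interval from -0.152 to 0.136 (0.04 without the mismatched arrays). At sufficient nitrate the difference was -0.76 ± 0.07 (adjusted p = 1.48e-13), and -0.81 ± 0.05 without the mismatched arrays. At low nitrate 25% of all probe sets were called higher in shoots and 36.9% lower, and at sufficient nitrate 27.6% and 37.3%.

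Ordered by level, ALPHA-VPE was highest in roots at low nitrate, with a mean of 7.84 ± 0.53 (SD) over the 17 arrays without the mismatched one, then in roots at sufficient nitrate (6.68 ± 0.55), shoots at low nitrate (4.96 ± 1.14) and shoots at sufficient nitrate (3.01 ± 0.32). GAMMA-VPE was highest in shoots at low nitrate (14.16 ± 0.13), then in roots at low nitrate (13.12 ± 0.25), shoots at sufficient nitrate (12.53 ± 0.58) and roots at sufficient nitrate (12.31 ± 0.45). APA1 had 13.76 ± 0.14 in roots at sufficient nitrate, 13.74 ± 0.24 in shoots at low nitrate, 13.70 ± 0.19 in roots at low nitrate and 12.95 ± 0.16 in shoots at sufficient nitrate (SD, n = 17). For APA1 neither the root supplies nor the organs at low nitrate were called apart, and shoots at sufficient nitrate were called lower than shoots at low nitrate and than roots at sufficient nitrate. Conditions that differ in both organ and supply were not tested against each other. This holds for the middle neighbours of ALPHA-VPE and GAMMA-VPE and for the first and last neighbours of APA1.

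The sizes of the responses were set against each other within arrays, by a permutation test of the difference between 2 genes with nitrate labels permuted within lines, two-sided, with 6 comparisons adjusted together. In shoots the response of GAMMA-VPE was greater than that of APA1 by 0.80 in log2 units, in 6 of 6 lines (permutation, adjusted p = 3e-05, from the smallest p that the permutations can give, 1e-05). ALPHA-VPE also exceeded APA1, by 0.85 in 5 of 6 lines (permutation, adjusted p = 0.0306). ALPHA-VPE and GAMMA-VPE differed by 0.05 (permutation, adjusted p = 0.894). The shoot values of ALPHA-VPE at sufficient nitrate are near the background, so its shoot response may be an underestimate. The 2 responses are therefore not shown to be equal. In roots the order was ALPHA-VPE over GAMMA-VPE by 0.52 in 5 of 6 lines (permutation, adjusted p = 0.0019) and GAMMA-VPE over APA1 by 0.72 in 5 of 6 lines (permutation, adjusted p = 0.00012). ALPHA-VPE exceeded APA1 in roots by 1.24 in 6 of 6 lines (permutation, adjusted p = 3e-05). The difference between ALPHA-VPE and APA1 in shoots did not pass without replicate 1 of every group, at 0.43 (adjusted p = 0.483), or without replicate 2 (0.0503). It was also lost without 1 of 4 single arrays, at adjusted p-values of 0.0964 without Fei-0 shoot low replicate 1, 0.1 and 0.0861 without Fei-0 shoot sufficient replicate 1 or 2, and 0.0571 without KB006 shoot low replicate 3. Without the mismatched arrays it was 1.19 (permutation, adjusted p = 0.000405). The other shoot differences were then 0.81 for GAMMA-VPE over APA1 and 0.38 for ALPHA-VPE over GAMMA-VPE (permutation, adjusted p = 0.263). The root differences were then 0.36 for ALPHA-VPE over GAMMA-VPE (permutation, adjusted p = 0.00137), 0.87 for GAMMA-VPE over APA1 and 1.22 for ALPHA-VPE over APA1.

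Across the 17 arrays of one organ and supply, 12 correlations between the genes were computed, and 2 passed after adjustment, both in roots at sufficient nitrate. GAMMA-VPE and APA1 correlated there with a Pearson r of 0.828 (permutation, adjusted p = 0.00084) and a Spearman rho of 0.78 (permutation, adjusted p = 0.00528). With the 2 arrays farthest from the median left out r was 0.721. ALPHA-VPE and GAMMA-VPE correlated with r = 0.626 (permutation, adjusted p = 0.0413), a rho of 0.672 (permutation, adjusted p = 0.0246) and r = 0.506 without the 2 farthest arrays. The arrays come from 6 lines with 2 or 3 arrays each, so a line's level and the spread within lines both enter these values. Unlike the test of responses, these permutations shuffled all 17 arrays across lines. The p-values thus treat arrays of the same line as independent, which they may not be. At low nitrate in roots GAMMA-VPE and APA1 had r = 0.52 (permutation, adjusted p = 0.122), and in shoots at sufficient nitrate r = -0.0435. Whether r differs between the supplies was not tested.

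**Figure D3:**
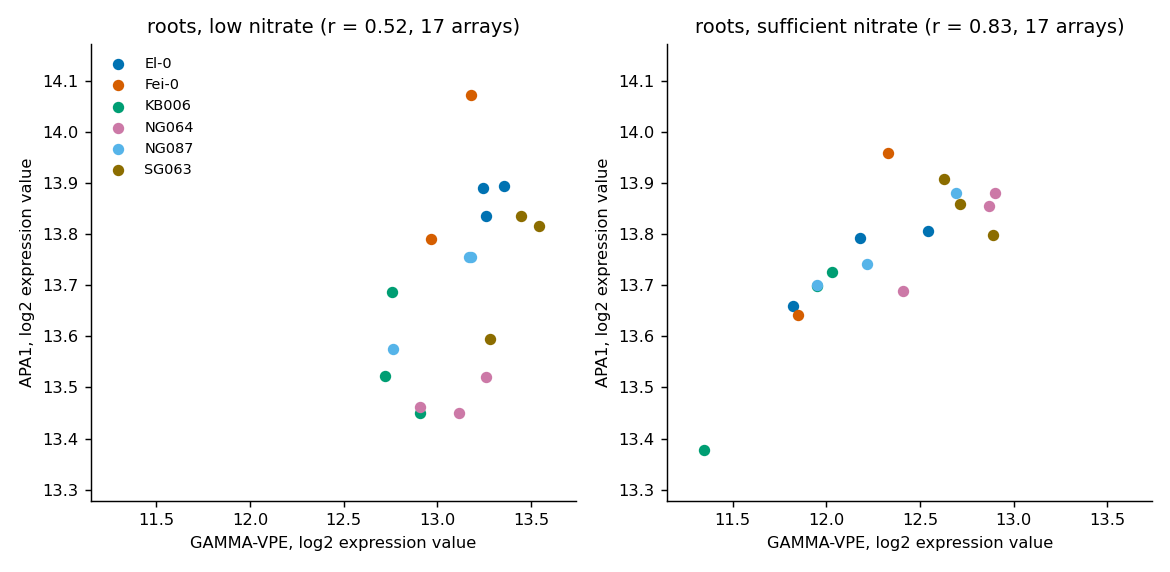
GAMMA-VPE against APA1 on the log2 scale in roots, at low nitrate on the left and sufficient nitrate on the right, 17 arrays each and coloured by line. The points at sufficient nitrate run together (r = 0.828), with a KB006 array lowest for both genes, and those at low nitrate are more scattered (r = 0.52).

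As a description over the 34 arrays of an organ, which share the 2 supplies and 6 lines, the genes whose values ran most like each member were listed, with no test. In shoots 6808 probe sets with 1 gene and a mean of 5 or more were compared. ALPHA-VPE was nearest to FACT (AT5G63560), a fatty alcohol caffeoyl transferase, at r = 0.894, then to AT5G37690 (0.870) and STR18 (0.869). GAMMA-VPE was nearest to AT5G18130 (0.930), AT2G17710 (0.928) and AT3G27210 (0.924). APA1 was nearest to the lectin gene EULS3 (0.952), AT1G16180 (0.946) and AT5G19440 (0.945). Among themselves the members had r = 0.811 for GAMMA-VPE and APA1, 0.794 for ALPHA-VPE and APA1, and 0.705 for ALPHA-VPE and GAMMA-VPE.

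In roots 6872 probe sets were compared. ALPHA-VPE was nearest to AT4G39235 (0.894), AT5G37670 (0.873) and AT5G13200 (0.857), and GAMMA-VPE to FACT (0.910), AT2G47710 (0.892) and AT1G62422 (0.886). APA1 had no gene above 0.805, its nearest being AT4G25030, PRA8 (0.781) and AT3G06170 (0.771). ALPHA-VPE and GAMMA-VPE kept r = 0.676 in roots, while APA1 had r = 0.259 with GAMMA-VPE and -0.183 with ALPHA-VPE.

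The other processing enzymes on the array were BETA-VPE (AT1G62710) and DELTA-VPE (AT3G20210). BETA-VPE, known for seeds, was detected in these seedlings and rose in shoots by 3.15 ± 0.40 (SE, adjusted p = 8.58e-07), and by 3.62 ± 0.24 (adjusted p = 1.63e-11) without the mismatched arrays. At sufficient nitrate 7 of the 17 shoot values left without the mismatched one were below 3.5, near the background, so no fold is given. El-0 shoots had BETA-VPE values of 9.33, 7.62 and 7.06 at low nitrate, against 3.59, 2.69 and 2.69 at sufficient nitrate. SG063 shoots had BETA-VPE values of 9.57, 9.44 and 9.50 at low nitrate, against 6.35, 6.56 and 6.74 at sufficient nitrate. SG063 had little spread at either supply, while at sufficient nitrate El-0 lay near the background. In roots BETA-VPE rose by 0.64 ± 0.09 (1.56-fold, adjusted p = 2.63e-06), and by 0.59 ± 0.08 without the mismatched arrays. Its response was greater in shoots than in roots by 2.51 ± 0.41 (adjusted p = 3.77e-06), and by 3.03 ± 0.26 without those arrays. In level, shoots minus roots was -1.01 at low nitrate (adjusted p = 0.00217) and -3.52 at sufficient nitrate (-0.82 and -3.85 without those arrays), the same side as ALPHA-VPE. DELTA-VPE was within 0.1 of the floor on 70 of 72 arrays, so nothing can be said of its response.

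A list of vacuolar proteases written by name held 53 names, synonyms included. They matched 28 genes, of which 12 had a probe set of their own, the members and their relatives included. The list was written with earlier results of these data known, so its counts are a description and no independent evidence. In shoots 8 of the 12 rose, beside 23.7% of all probe sets, and 0 fell, with a median difference of 0.54 beside 0 for all probe sets, and without the mismatched arrays 8 rose and 0 fell with a median of 0.66. The shift of array medians bears on these calls. With each array centred on its median, which lowers the median shoot difference of all probe sets by 0.174, 5 of the 12 rose, 3 fell, and the median was 0.36 beside -0.17. Over all probe sets, rises and falls numbered 5381 and 3938 in shoots as deposited, 3796 and 12282 with centred arrays and 4736 and 4778 after quantile normalization. In roots they numbered 4815 and 3516 as deposited, 10245 and 3401 with centred arrays and 5078 and 3384 after quantile normalization. ALPHA-VPE, GAMMA-VPE, APA1 and BETA-VPE rose in shoots under each of these scalings.

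Among the further proteases, the serine carboxypeptidase-like gene SCPL49 rose in shoots by 0.71 ± 0.15 (SE, adjusted p = 0.000314). CP1, a papain-type cysteine protease, rose by 0.58 (adjusted p = 0.0194), and the carboxypeptidase-like genes scpl48 by 0.50 (0.0143) and scpl20 by 0.42 (0.0137). The calls of CP1, scpl48 and scpl20 were lost with centred arrays. The differences of scpl29 (-0.04) and scpl47 (0.02) did not pass as deposited. DELTA-VPE and the aspartic protease gene UND were at or near the floor, as was scpl47, and the 3 falls that centring brought are theirs. In roots 4 of the 12 rose, beside 21.2% of all probe sets, ALPHA-VPE, GAMMA-VPE, BETA-VPE and scpl48 (0.32, adjusted p = 0.0007), and 0 fell. Of these, 3 are the processing enzymes already described. The median was 0.05, beside 0 for all probe sets, and without the mismatched arrays scpl20 rose as well.

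**Figure D4:**
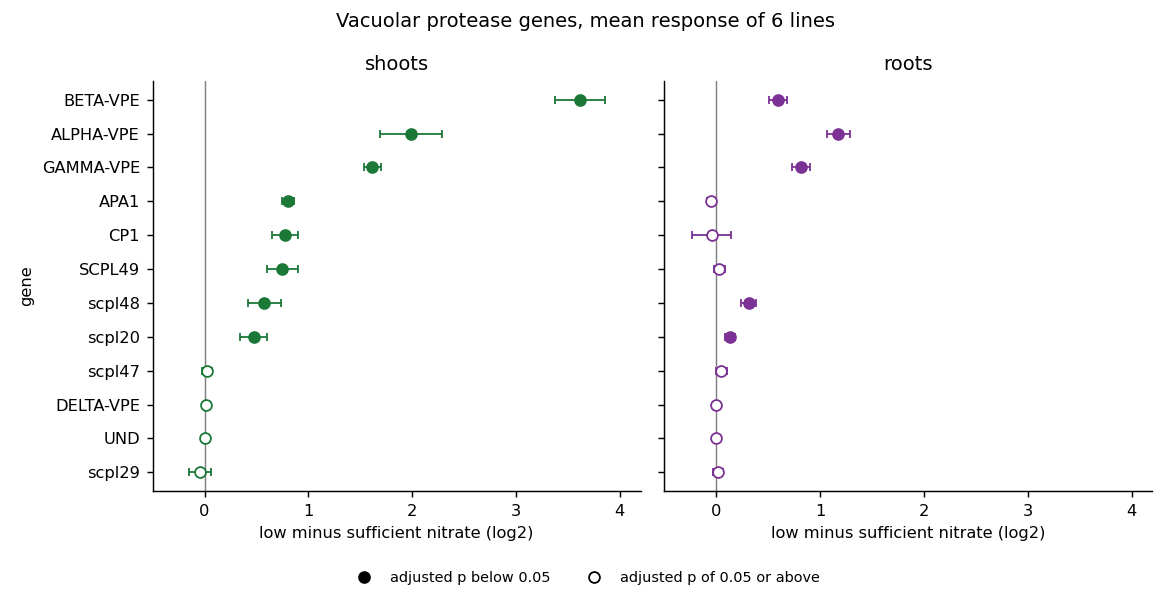
Mean low minus sufficient nitrate difference of the 12 measured vacuolar protease genes in shoots and roots, in log2 units with limma's SE, without the mismatched Fei-0 arrays; filled points passed an adjusted p of 0.05. BETA-VPE, ALPHA-VPE, GAMMA-VPE and APA1 have the widest shoot differences, and in roots ALPHA-VPE, GAMMA-VPE and BETA-VPE lead while APA1 is at -0.05.

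Inhibitors, sorting factors and pumps of the vacuole were counted from lists of their own. The shares of all probe sets that rose were again 23.7% in shoots and 21.2% in roots. These lists too were written with earlier results of these data known. Their names matched 12 genes for protease inhibitors, 34 for vacuolar sorting and 27 for tonoplast pumps and channels. Seed storage names matched 11 genes, and those for metacaspases and other cell death proteases 15. Both measured protease inhibitors, of 25 names, rose in shoots, the cystatin gene CYS1, whose product blocks papain-type proteases, by 0.63 (adjusted p = 6.31e-05) and the serpin gene SERPIN1 by 0.56 (0.00015), and without the mismatched arrays by 0.72 and 0.67. CYS1 also rose in roots, by 0.41 (adjusted p = 3.55e-08). Of 42 names for vacuolar sorting 2 were measured. ARA6, an endosomal Rab GTPase, rose in shoots by 0.44 (adjusted p = 3.48e-06), and MAG2, needed for export of storage protein precursors from the endoplasmic reticulum, rose in roots by 0.18 (0.0279). Among 4 measured genes of 37 names for tonoplast pumps and channels, the proton pump subunit genes VHA-A3 and AT3G58730 fell in shoots, by 0.29 (adjusted p = 0.0183) and 0.17 (0.00971), and VHA-A2 fell in roots by 0.14 (0.0221). Each of these calls, CYS1, SERPIN1, ARA6, MAG2, VHA-A3, AT3G58730 and VHA-A2, also passed without the mismatched arrays. PAP85, the 1 measured of 13 seed storage names, differed by -0.21 in shoots and did not pass. None of 26 names for metacaspases and other cell death proteases had a probe set of its own (0 measured).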

How the data were processed

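The log2 values per probe set were used as the authors deposited them. They were made with GCRMA and affy, per the submitters' processing notes, which list limma too and give no versions; which arrays formed 1 normalization set is not stated there. Each organ was fitted in limma 3.58.1 (R 4.3.3) as 12 group means over 36 arrays, and all 72 arrays (24 groups) served the comparisons between organs. P-values were adjusted by Benjamini-Hochberg over all 22746 probe sets and called below 0.05, with no filter. Differences between genes in response used 100000 permutations of nitrate labels within lines (Python 3.11.15, numpy 2.4.6, scipy 1.17.1). The fits were tested on simulated data. The members and lists were chosen with earlier results of these data known. The genes named are the members, the 3 genes of highest Pearson correlation with each member in each organ, the measured vacuolar proteases, and from each further list the largest called rises and falls, at most 3 of either. Gene names came from the probe table and the TAIR10.1 gene table. Replicates are biological pools per the labels; 6 seeds per dish, as also stated there, would not fill 3 plates with 30 plants. No reads are counted on an array, so the number of arrays limits the precision. Alternatives were the arrays left out, a replicate block, median centring, quantile normalization, a filter on dim probe sets, an intensity trend with a robust prior, and 1 fit over all arrays.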

Additional observations from a re-analysis of the deposited data

Results flagged for a closer look

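With all arrays the response to low nitrate differed between the organs for 2 of the 3 genes and for a relative. Each was called by a test of the difference itself in limma, beside 18.4% of all probe sets with a greater response in shoots. The shoot response minus the root response was 0.84 for GAMMA-VPE (adjusted p = 0.000335), 0.75 for APA1 (adjusted p = 5.83e-08) and 2.51 for BETA-VPE (adjusted p = 3.77e-06), in log2 units. The direction was the same without the mismatched Fei-0 arrays, at 0.80, 0.85 and 3.03, beside 24.5% of all probe sets. For ALPHA-VPE limma gave 0.37 (adjusted p = 0.584) with all arrays and 0.82 (adjusted p = 0.0346) without the mismatched ones. When arrays were also centred on their medians, the latter was 0.60 (adjusted p = 0.0818). For GAMMA-VPE the difference did not pass with replicate 1 of every group left out (adjusted p = 0.0693). Groups of 3 arrays, and of more than 10, were not searched for outlying arrays.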

How the results depend on the processing

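The mean rises of GAMMA-VPE and APA1 in shoots and of ALPHA-VPE in roots passed under every alternative run. Without the mismatched Fei-0 arrays, calls were made in 3 lines for ALPHA-VPE in shoots (0 with all arrays), 5 for ALPHA-VPE in roots (2), 5 for GAMMA-VPE in roots (1) and 6 for APA1 in shoots (3). There the ALPHA-VPE response of Fei-0 shoots reversed to 2.61, its shoot minus root response of 0.818 passed, the GAMMA-VPE shoot minus root level at sufficient nitrate was 0.242, the adjusted p for its line level in roots 0.00111, and 1420 probe sets showed an interaction in roots (501 with all arrays). With arrays centred, 12282 probe sets fell in shoots and 10245 rose in roots, 1 ALPHA-VPE line passed in shoots and 2 GAMMA-VPE lines in roots, that GAMMA-VPE level difference was 0.339, and DELTA-VPE (-0.155) and scpl47 (-0.154) reversed in shoots because centring moves values at the floor. Centring all arrays also left 3 lines called for ALPHA-VPE in roots and 2 for APA1 in shoots. Centred and without the mismatched arrays, chosen after seeing the data, 13125 probe sets fell in shoots, 11201 rose in roots and 1552 showed an interaction in roots. The lines called were then 3 and 5 for ALPHA-VPE in shoots and roots, 5 for GAMMA-VPE in roots and 6 for APA1 in shoots. The GAMMA-VPE level difference was 0.414, its adjusted p for line level in roots 0.0012 and for the interaction in shoots 0.0465, and ALPHA-VPE in Fei-0 shoots (2.47), DELTA-VPE (-0.166) and scpl47 (-0.162) reversed. With only probe sets of mean 5 or more, which drops ALPHA-VPE from shoots, 13 and 299 probe sets showed an interaction in shoots (182 unfiltered) and roots, 5 ALPHA-VPE and 2 GAMMA-VPE lines passed in roots. After quantile normalization the adjusted p for GAMMA-VPE line level in shoots was 0.0672 and 2 GAMMA-VPE lines passed in roots. In 1 fit of all arrays the lines called were 2 and 0 for ALPHA-VPE in shoots and roots, 5 and 0 for APA1 and 2 for GAMMA-VPE in roots, and the adjusted p for line level in roots was 0.285 for ALPHA-VPE and 0.318 for APA1. The cause of these changes was not tested beyond what the settings themselves change.

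Same-numbered replicates paired the samples only in part: 16 of 36 correlations of their deviations were over 0.1, and the range was -0.559 to 0.360. Those of KB006, NG087 and SG063 shoots lay between 0.120 and 0.360, and those of KB006 roots between 0.105 and 0.267. In El-0 and Fei-0 shoots they lay between -0.559 and 0.0479. The replicate block took the ALPHA-VPE minus APA1 response in shoots (0.852) to a permutation adjusted p of 0.0519 and changed no other call of the comparisons.

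Leaving out a replicate of every group, the mismatched arrays or 1 array moved results over these ranges. The ALPHA-VPE difference was 1.01 to 1.99 in shoots, the lowest without replicate 1 (adjusted p = 0.195), with 0 to 3 lines called in shoots and 0 to 5 in roots. Without replicate 1 its response in Fei-0 shoots was -2.11, and its shoot minus root response was -0.288 to 0.818. The GAMMA-VPE difference in roots was 0.41 to 0.872, the lowest without replicate 2 (adjusted p = 0.0898), with 2 to 6 lines called in shoots and 0 to 5 in roots. Its shoot minus root response was 0.657 to 1.12 and its level difference at sufficient nitrate -0.0667 to 0.308. APA1 differed by -0.123 to -0.0219 in roots, the first without replicate 2 (adjusted p = 0.0152), with 0 to 6 lines called in shoots and 0 to 1 in roots, and ALPHA-VPE minus APA1 in shoots was 0.429 to 1.19. Adjusted p-values for line level were 3.2e-05 to 0.191 (ALPHA-VPE, roots), 0.000396 to 0.442 (GAMMA-VPE, shoots), 0.00111 to 0.564 (GAMMA-VPE, roots) and 0.00109 to 0.112 (APA1, roots). Probe sets that rose numbered 3539 to 6379 in shoots and 3144 to 5376 in roots, those that fell 2418 to 4979 and 2315 to 4350, interactions 106 to 495 and 132 to 1508, line level differences 2463 to 8162 and 5613 to 12727, and greater responses in shoots 2392 to 5564.

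Single arrays decided some calls. The ALPHA-VPE count of lines in roots changed with 34 of 36 arrays left out in turn, and that of GAMMA-VPE with 10 of 36. Without Fei-0 shoot low replicate 1 or Fei-0 shoot sufficient replicate 3, 1 line was called for ALPHA-VPE in shoots, and without Fei-0 shoot low or sufficient replicate 3, 5 were for APA1. GAMMA-VPE line level in shoots lost its call without each of 13 of 36 arrays (adjusted p up to 0.0633), and in roots it gained one without Fei-0 root sufficient replicate 2 (0.0427) or 3 (0.00373). Leaving out replicate 3 there also brought its level difference to 0.27 (adjusted p = 0.0361). The APA1 call in NG064 roots was lost without replicate 1 or 3 of either supply.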
